A study of Mus musculus with 4 samples.

Results

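Expression of 10 genes that pattern the sclerotome and the polarity of the somite was described in Jmjd3-/- and wild-type mouse embryos. The list holds Pax1, Pax9, Nkx3-2, Foxc1, Foxc2, Uncx, Tbx18, Sox9, Meox2 and Twist1, and its probes were those whose accession in the scanner files maps to one of these genes. Of the 10 genes, 9 had a probe matched this way, 15 probes in all of the 41174 on the array, and no probe was matched to Nkx3-2, so it is not reported. All 9 were among the 13583 genes tested, out of 18224 genes named on the array.

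Total RNA came from the posterior portion of embryos at E9.5 (embryonic day 9.5), dissected from intercrosses of Jmjd3+/- mice and genotyped. Jmjd3, now Kdm6b, encodes an enzyme that takes repressive methyl groups off histone H3. The groups were Jmjd3-/- (replicates 1 and 9, by the numbers in their labels) and wild-type (replicates 3 and 4), with 2 independent RNA samples each and 1 single-colour Agilent array per sample. The labels do not say whether a sample was 1 embryo or a pool, nor how the Jmjd3 allele was made, so a p-value here reflects how far these particular samples scatter, which may be partly technical. Samples are called by genotype and number below, as Jmjd3-/- replicate 1 or Jmjd3-/- sample 1.

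The sclerotome is the ventral part of the somite. Its cells leave the epithelial somite in response to Sonic hedgehog from the notochord and floor plate, and they form the vertebrae and ribs. Pax1, Pax9 and Nkx3-2 are transcription factors that act in this program, Sox9 starts cartilage formation, and Meox2 is a homeobox factor of somites and limb muscle. Each somite is also divided along the body axis: Tbx18 marks and maintains its anterior compartment and Uncx its posterior compartment. The forkhead genes Foxc1 and Foxc2 act earlier, in presomitic and paraxial mesoderm, and Twist1 is a basic helix-loop-helix factor of sclerotome, limb bud and head mesenchyme.

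The promoters of 4 of these genes are shown first, chosen for their differences between genotypes, given further on: Tbx18 and Pax9 had the most negative differences, Uncx was nearest to no difference, and Foxc1 was higher in Jmjd3-/- (the table used holds no window for Foxc2, which was also higher). Each run is the 250 bases upstream of the RefSeq start, 5′ to 3′ on the gene's strand, from GRCm38.p6, with CpG dinucleotides in capitals. Tbx18 is at chr9:87731261-87731510 (minus strand), Pax9 at chr12:56695221-56695470 (plus strand), Uncx at chr5:139543648-139543897 (plus strand) and Foxc1 at chr13:31806396-31806645 (plus strand).
Tbx18: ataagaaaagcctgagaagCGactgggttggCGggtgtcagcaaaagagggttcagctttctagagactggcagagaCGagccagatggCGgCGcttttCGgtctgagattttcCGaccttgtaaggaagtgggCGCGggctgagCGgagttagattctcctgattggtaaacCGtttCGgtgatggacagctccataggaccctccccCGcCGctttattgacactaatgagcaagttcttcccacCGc
Pax9: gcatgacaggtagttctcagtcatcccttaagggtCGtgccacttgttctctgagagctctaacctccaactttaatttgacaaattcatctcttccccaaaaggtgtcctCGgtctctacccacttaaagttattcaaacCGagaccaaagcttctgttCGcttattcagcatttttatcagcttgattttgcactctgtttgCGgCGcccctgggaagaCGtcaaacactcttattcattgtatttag
Uncx: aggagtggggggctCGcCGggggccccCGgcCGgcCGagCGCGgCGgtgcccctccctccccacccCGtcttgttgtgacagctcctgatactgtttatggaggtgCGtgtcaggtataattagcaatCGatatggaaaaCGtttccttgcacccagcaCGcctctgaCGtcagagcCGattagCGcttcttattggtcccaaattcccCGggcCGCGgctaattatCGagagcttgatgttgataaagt
Foxc1: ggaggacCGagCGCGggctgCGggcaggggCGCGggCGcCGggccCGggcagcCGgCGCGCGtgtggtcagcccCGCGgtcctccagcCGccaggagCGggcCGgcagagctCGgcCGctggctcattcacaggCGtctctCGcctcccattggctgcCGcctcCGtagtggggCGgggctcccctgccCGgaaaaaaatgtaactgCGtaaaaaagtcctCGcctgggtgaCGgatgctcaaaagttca

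RefSeq windows were matched for 8 of the 10 genes. Their median was 16.5 CpGs, with 21 in Nkx3-2, against 6 over 32851 promoter windows of the same length. The G and C content ran from 43.6% in Pax9 to 70.8% in Foxc1, against a median of 52.4% over all windows. The 5 windows of genes that were lower in Jmjd3-/- held 7 to 18 CpGs (7 in Pax9, 10 in Pax1, 12 in Meox2, 15 in Tbx18 and 18 in Twist1), against 20 in Uncx and 29 in Foxc1, a description over 7 genes with no test. The E-box CANNTG, the class of site that Twist1 and other basic helix-loop-helix factors bind, was in 4 of the 8 windows (Nkx3-2, Tbx18, Meox2 and Pax9) and in 66.2% of all windows. Of the 8 windows 0 held the Gli site GACCACCCA, the T-box site AGGTGTGA or the forkhead site GTAAACA on either strand, which are in 0.225%, 1.12% and 3.17% of all windows. The TATA box TATAAA was in Twist1 and Meox2 and in 12.4% of all windows.

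On the arrays, 59.8% to 63.0% of probes were well above background, and 0 spots were saturated. All 4 arrays were on 1 slide and in 1 scan, with the Jmjd3-/- arrays at positions 1 and 4 and the wild-type arrays at positions 2 and 3, so position and genotype cannot be told apart. The Kdm6b probe, for the targeted gene, read 0.35 and 0.11 in the Jmjd3-/- samples 1 and 9, against 2.15 and 2.23 in the wild-type samples 3 and 4; the sources used here do not give the deleted part, so this checks the labels only if the probe lies within it. Markers of posterior and head tissue were also read. All 8 tail bud and presomitic markers were well above background on every array. Among the head and branchial arch markers, the forebrain and midbrain genes Six3 and Otx2 were not well above background on both arrays of either genotype. Barx1, Lhx2, Dlx2, Dlx5, Alx1 and Emx2 were well above background on all 4 arrays. RNA of whole embryos would also hold the tail bud genes, so these markers cannot decide the posterior origin, which comes from the labels.

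Of the 9 sclerotome and polarity genes, 6 had both Jmjd3-/- arrays below both wild-type arrays: Pax1, Pax9, Sox9, Twist1, Meox2 and Tbx18. Foxc1 and Foxc2 had both Jmjd3-/- arrays above both wild-type arrays, and in Uncx the genotypes overlapped. The lower genes stood at 50.5% (Tbx18) to 75.1% (Meox2) of their wild-type level, and Foxc1 and Foxc2 at 132% and 133%. None of these differences passed an adjusted p of 0.05: 0 of the 9 genes were called, against 5 of 13583 genes (0.0368%), by limma with Benjamini-Hochberg adjustment over all genes tested. At an unadjusted p under 0.05 there were 4 lower (Tbx18, Pax9, Meox2 and Twist1) and 2 higher (Foxc1 and Foxc2) of the 9, beside 5.93% and 5.15% of all genes. The 6 that lay below without overlap compare with 23.7% of all genes, and the 2 that lay above with 23.0%. In a bulk sample, fewer cells of a type and less RNA per cell cannot be told apart.

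Values are normalised log2 signals, that is, log2 of the processed intensity minus the 75th percentile of the array, so a value of 0 is a signal at that percentile. The level of a gene is compared between arrays for 1 probe, and marker lists are also given as sums over their probes on each array. A difference is Jmjd3-/- minus wild-type on this scale, with the moderated standard error (SE) of limma, n = 2 per genotype. The median difference of the 9 genes was −0.48, and that of all genes tested was −0.01.

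**Figure D1:**
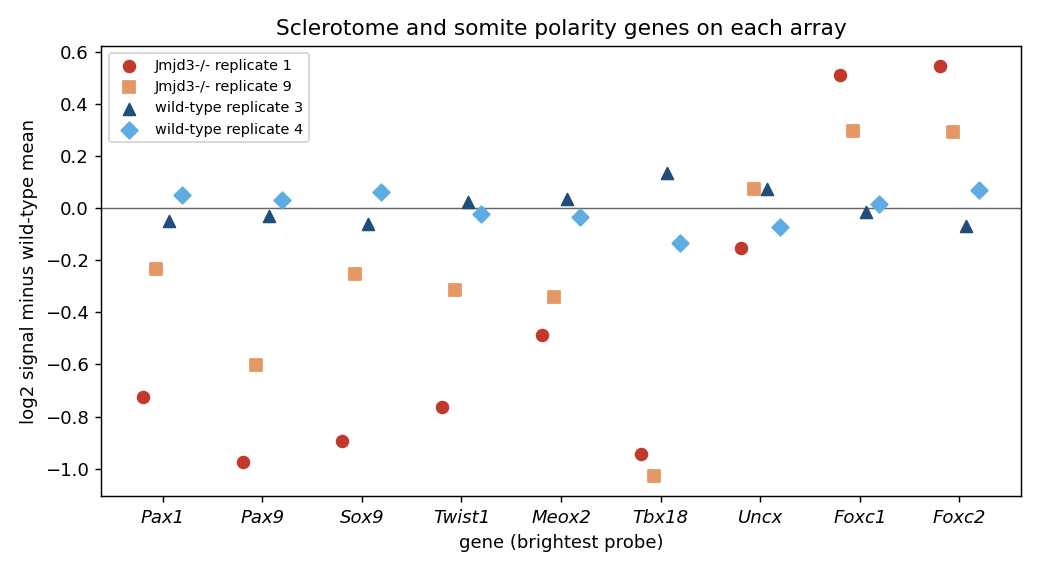
Normalised log2 signal of the brightest probe of each gene, less its wild-type mean (2 arrays), with 1 point per array. Pax1, Pax9, Sox9, Twist1, Meox2 and Tbx18 have both Jmjd3-/- points below both wild-type points, Foxc1 and Foxc2 have both above, and the points of Uncx mix.

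The sclerotome genes proper come first. Pax1, a paired-box factor needed for vertebral bodies and discs, read 1.48 and 1.97 in the Jmjd3-/- samples 1 and 9, against 2.16 and 2.25 in the wild-type samples 3 and 4. The genotypes did not overlap, but the Jmjd3-/- arrays lay 0.49 apart, further than replicate 9 lay from the wild-type mean, at −0.23. The difference was −0.48 (SE 0.19), with a 95% interval from −1.03 to 0.07 and an adjusted p of 0.489 in limma.

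Pax9, the close relative that acts with Pax1 in the sclerotome, read −3.38 and −3.00 in the Jmjd3-/- samples 1 and 9, against −2.43 and −2.37 in the wild-type samples 3 and 4. It was low in both Jmjd3-/- samples, and its wild-type arrays nearly coincided. The Jmjd3-/- mean was 57.9% of wild-type, a difference of −0.79 (SE 0.15, adjusted p = 0.330 by limma). Its probe is dim, with processed intensities of 58.0 and 72.0 against 111 and 121, and with normexp background correction the difference was −0.45.

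Sox9, which starts cartilage formation and is also active in neural crest and neural tube, read −0.30 and 0.35 in the Jmjd3-/- samples 1 and 9, against 0.54 and 0.66 in the wild-type samples 3 and 4. Replicate 1 was far below the other arrays, and replicate 9 was at −0.25 from the wild-type mean. The difference was −0.57 (SE 0.25, adjusted p = 0.505 by limma), and replicate 1 alone was at −0.90 from the wild-type mean.

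Pax1 and Sox9 each have a probe that is printed 10 times on every array, which shows the technical error within an array. The SD over the 10 Pax1 spots was 0.04 to 0.05 on each array, and over the 10 Sox9 spots of probe A_52_P214630 it was 0.05 to 0.06. For Pax1 the highest spot of Jmjd3-/- replicate 9 was at 2.04 and the lowest wild-type spot at 2.10, so no spot of 1 genotype reached the other. For this Sox9 probe the array means were −0.65 and 0.11 in the Jmjd3-/- samples 1 and 9, against 0.14 and 0.22 in the wild-type samples 3 and 4. Spots of replicate 9 (0.05 to 0.26) and of wild-type replicate 3 (0.05 to 0.25) covered the same range, so by this probe the lower Sox9 signal was that of replicate 1.

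**Figure D2:**
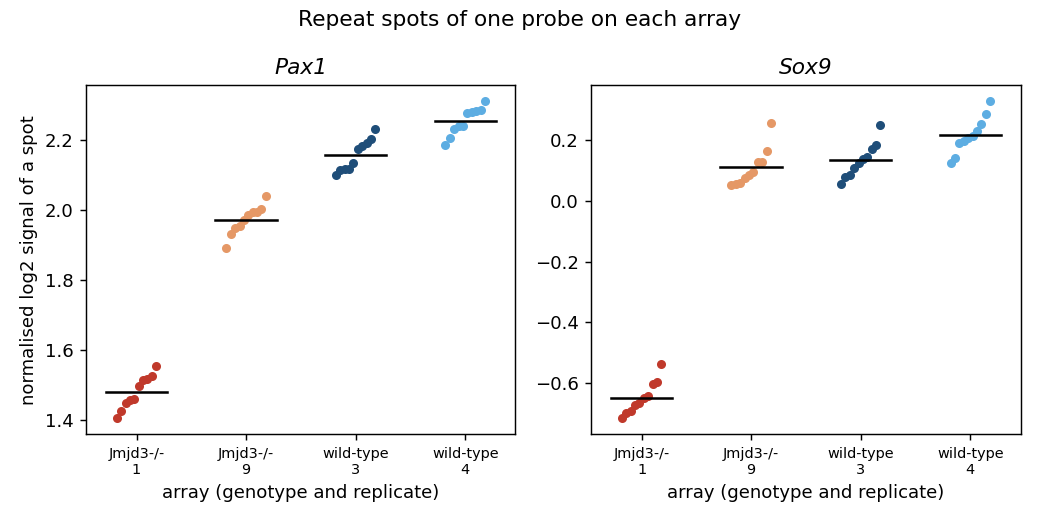
Normalised log2 signal of each of the 10 spots of 1 probe for Pax1 (left) and Sox9 (right) on each array, with a line at the mean of the spots. The Pax1 spots of the 2 genotypes do not meet, and the Sox9 spots of Jmjd3-/- replicate 9 overlap the wild-type spots while those of replicate 1 lie between −0.72 and −0.54.

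Twist1 read 1.89 and 2.34 in the Jmjd3-/- samples 1 and 9, against 2.68 and 2.63 in the wild-type samples 3 and 4. The wild-type arrays were 0.05 apart and both Jmjd3-/- arrays were lower, replicate 1 more so. The difference was −0.54 (SE 0.18, adjusted p = 0.432 by limma).

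Meox2 read 0.73 and 0.87 in the Jmjd3-/- samples 1 and 9, against 1.25 and 1.18 in the wild-type samples 3 and 4. Its arrays were close within each genotype, and its difference was −0.41 (SE 0.09, adjusted p = 0.336 by limma). Its second, dimmer probe gave −0.46 (SE 0.11), also without overlap.

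Of the polarity genes, Tbx18 lay below wild-type without overlap and Uncx overlapped. Tbx18, of the anterior compartment, read −2.44 and −2.53 in the Jmjd3-/- samples 1 and 9, against −1.37 and −1.64 in the wild-type samples 3 and 4. It had the most negative difference of the 9. It was also the 1 gene among the 8 without overlap in which replicate 9 lay further from wild-type than replicate 1. The difference was −0.98 (SE 0.12), 1.98-fold lower, with an adjusted p of 0.219 (limma) and rank 106 by p among all genes tested. The second Tbx18 probe read −4.29 and −4.80 against −3.56 and −3.96, a difference of −0.78 (SE 0.25).

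Uncx, of the posterior compartment, read −0.41 and −0.19 in the Jmjd3-/- samples 1 and 9, against −0.19 and −0.33 in the wild-type samples 3 and 4. The genotypes overlapped, the difference was −0.04 (SE 0.12, adjusted p = 0.923 by limma), and its 95% interval ran from −0.38 to 0.30. The second Uncx probe gave −0.02 (SE 0.10), also with overlap.

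**Figure D3:**
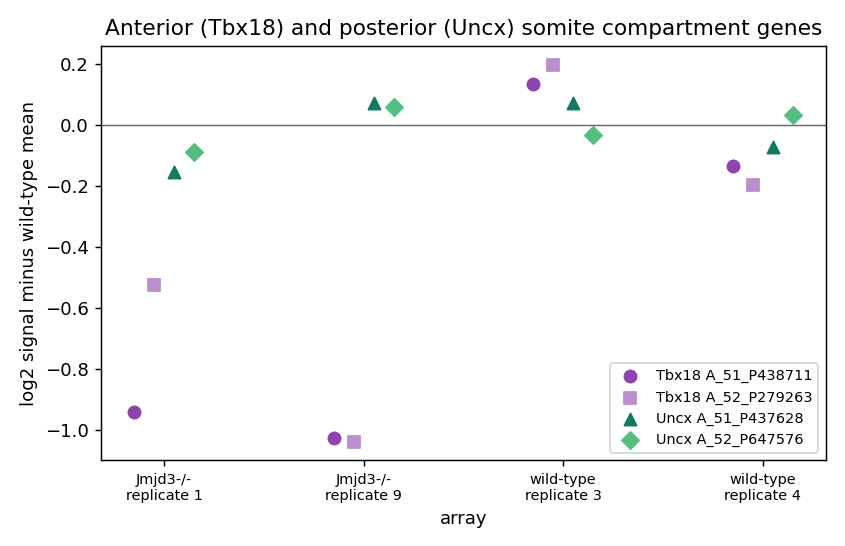
Normalised log2 signal of both Tbx18 and both Uncx probes, less each probe's wild-type mean, on the 4 arrays. Both Tbx18 probes are lower on both Jmjd3-/- arrays than on both wild-type arrays, and the Uncx probes stay between −0.15 and 0.07 on the brighter probe.

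Foxc1 and Foxc2 went the other way. Foxc1 read 3.47 and 3.26 in the Jmjd3-/- samples 1 and 9, against 2.94 and 2.98 in the wild-type samples 3 and 4. Both Jmjd3-/- arrays were above both wild-type arrays, and the difference was 0.40 (SE 0.11, adjusted p = 0.366 by limma). Foxc2 read 3.12 and 2.86 in the Jmjd3-/- samples 1 and 9, against 2.51 and 2.64 in the wild-type samples 3 and 4. Its genotypes did not overlap either, with a difference of 0.42 (SE 0.13, adjusted p = 0.406 by limma). Across the 4 arrays, Foxc1 and Foxc2 had the most alike pattern of any pair among the 9 genes, at a distance of 0.08 (the Euclidean distance between log2 values centred on each gene's mean). The next pair was Pax1 and Twist1, at 0.12.

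Every gene with more than 1 probe well above background had the same sign on each such probe. Of 14 probes that entered a fit over all probes, 10 had both Jmjd3-/- arrays below both wild-type arrays, against 21.3% of 25055 probes, and 0 passed an adjusted p of 0.05 (0.0% of all probes in limma, with 2421 at an unadjusted p under 0.05). These 10 probes are of the 6 genes counted as lower above, in the same RNA samples, and are not independent of that count. Sox9 has 3 probes, with differences of −0.57, −0.44 and −0.34, of which the dimmest was well above background on 3 of 4 arrays. The second Pax1 probe was well above background on 1 of 4 arrays, and its genotypes overlapped.

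**Figure D4:**
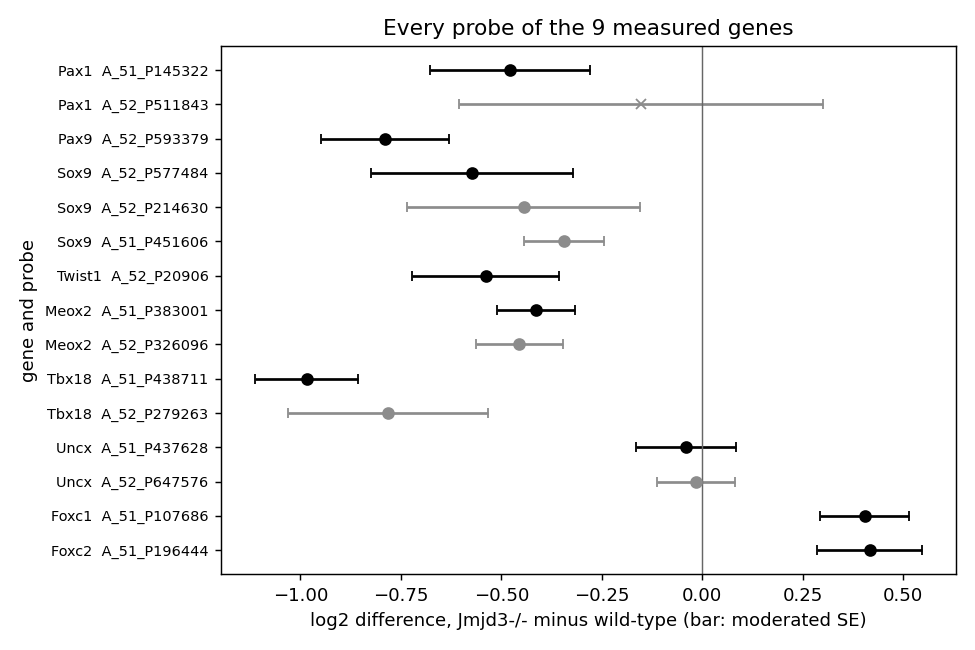
Log2 difference, Jmjd3-/- minus wild-type, of each of the 15 probes, with the moderated SE as a bar; black marks the brightest probe of a gene, grey the others, and a cross the Pax1 probe that was too dim for the fit. All Sox9, Meox2 and Tbx18 probes lie below 0, and the Foxc1 and Foxc2 probes lie above 0.

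The Jmjd3-/- samples were not equally far from wild-type. In 7 of the 8 genes without overlap, replicate 1 lay further from the wild-type mean than replicate 9, against 72.4% of all genes without overlap. The SD between the Jmjd3-/- arrays was larger than that between the wild-type arrays in 8 of the 9 genes, against 71.0% of all genes tested. The median over the 9 genes was −0.72 in replicate 1 and −0.25 in replicate 9, each against the wild-type mean, and 0.03 for wild-type replicate 4 less replicate 3. With replicate 1 left out the differences were −1.03 for Tbx18, −0.60 for Pax9, −0.34 for Meox2, −0.31 for Twist1, −0.25 for Sox9 and −0.23 for Pax1, and 0.30 and 0.29 for Foxc1 and Foxc2.

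Other genes around the sclerotome were taken from lists of signals, polarity genes, downstream genes and other somite compartments. In each of these lists 0 genes passed an adjusted p of 0.05 (limma), and the counts at an unadjusted p are given for each. Of all genes tested, 5.93% were lower and 5.15% higher at an unadjusted p under 0.05 (limma). Without overlap, 23.7% of all genes lay below and 23.0% above. Hedgehog pathway and BMP antagonist genes, which induce sclerotome, had a median difference of 0.04 over 14 genes, with 1 lower and 1 higher at an unadjusted p under 0.05. Nog, a BMP antagonist, was at 0.38 (SE 0.09), Hhip, a hedgehog-binding feedback inhibitor, at −0.77 (SE 0.27), and the hedgehog effector Gli2 at 0.22 (SE 0.10). Shh itself was at −0.12 (SE 0.18), with overlap of the genotypes, as were the receptor gene Ptch1 at 0.26 (SE 0.29) and the Smo gene at 0.04 (SE 0.08). Gli1, at −0.11 (SE 0.07), and Gas1, at −0.37 (SE 0.20), lay below without overlap. With Hhip, 3 of the 14 genes lay below without overlap, and 3 lay above, Nog and Gli2 among them.

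Genes that set segment polarity and boundaries before the sclerotome forms had a median of 0.35 over 12 genes, with 1 lower and 3 higher at an unadjusted p under 0.05. The Notch ligand genes Dll1 and Dll3 were at 1.00 (SE 0.22) and 1.30 (SE 0.33), and Efnb2, a boundary ligand of the posterior compartment, at −0.30 (SE 0.09). In this list 5 genes lay above without overlap and 1 below.

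Genes downstream in sclerotome, cartilage and tendon had a median of −0.10 over 14 genes, with 2 lower and 2 higher at an unadjusted p under 0.05, and 7 below and 2 above without overlap. Comp, a cartilage matrix gene, was at 1.46 (SE 0.09), and Twist2 at −0.56 (SE 0.15), close to Twist1. The Comp probe was dim, with processed intensities of 69.7 and 59.9 in Jmjd3-/- against 24.3 and 24.6 in wild-type. Col2a1, the main collagen gene of cartilage and a Sox9 target, was at −0.21 (SE 0.13) without overlap. Dermomyotome and myotome genes had a median of −0.14 over 11 genes, with 1 lower at an unadjusted p under 0.05, and 5 below and 2 above without overlap. The paired-box gene Pax7 was at −0.76 (SE 0.14), on a dim probe with processed intensities of 23.7 and 28.6 in Jmjd3-/- against 43.5 and 47.9 in wild-type. The myogenic gene Myf5, not well above background on either Jmjd3-/- array, was at least 1.30-fold lower by its mean signals. This bound carries no sampling error, and the fitted Myf5 difference had a 95% interval from −2.60 to 0.03 (adjusted p = 0.455 in limma).

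**Figure D5:**
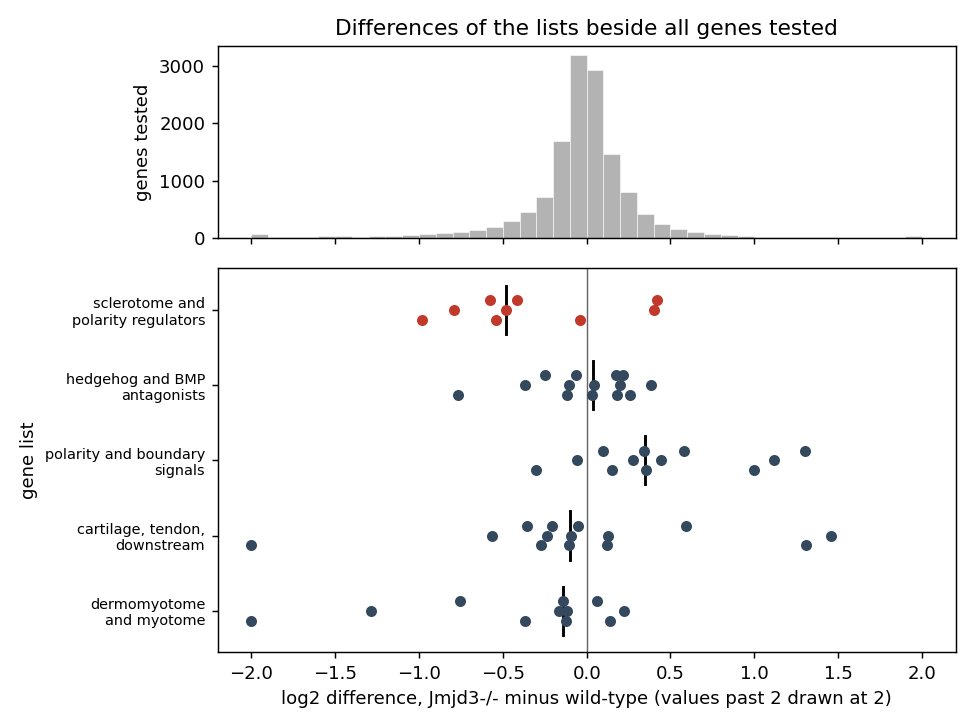
Log2 differences, Jmjd3-/- minus wild-type, of all 13583 genes tested (histogram, above) and of each gene in the 9-gene list and the 4 other lists (points, below, with a bar at the median). The 9 genes have a median of −0.48 and the polarity and boundary list one of 0.35; 2 genes of other lists that lie past the limit of the axis are drawn at its edge.

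Markers of other tissues also differed in level, and 1 of them, Barx1 of the branchial arches, passed an adjusted p of 0.05 (limma). Tail bud and presomitic markers had a positive difference in 8 of 8 genes, 7 of them above without overlap, beside 23.0% of all genes. Their summed signal relative to the 75th percentile was 49.6 and 28.7 in the Jmjd3-/- samples 1 and 9, against 13.5 and 15.4 in the wild-type samples 3 and 4. Tbx6, the brightest of these markers, weighs most in that sum. Foxc1 and Foxc2 are also expressed in presomitic mesoderm. Head and branchial arch markers summed to 1.80 and 3.17 in Jmjd3-/- and 5.86 and 6.53 in wild-type, with 5 of 6 tested genes lower. Neural crest markers summed to 3.40 and 4.70 against 5.20 and 5.10, with 7 of 7 lower, and cardiomyocyte markers to 3.72 and 5.17 against 10.1 and 6.83, with 5 of 6 lower. Twist1 and Sox9 are also expressed in head mesenchyme and neural crest, and Tbx18 in heart and limb mesenchyme. Limb and lateral plate markers summed to 29.4 and 30.4 against 28.2 and 27.4, with 5 of 7 lower. The brightest limb probe, that of Pitx1, weighs most in this sum and was at 0.23 (SE 0.07). Prrx1 and Tbx5 of the same list were at −0.74 (SE 0.10) and −1.05 (SE 0.16). Endothelial markers summed to 14.0 and 14.0 against 17.3 and 17.8, with 7 of 8 lower. The notochord and floor plate markers, which share T with the tail bud list, had 2 of 5 lower, and intermediate mesoderm markers 1 of 3. Lower in these counts means a negative difference, with or without overlap, and the median over all genes tested was −0.01. Below without overlap were 4 head and arch, 5 neural crest, 4 cardiomyocyte, 3 limb and 4 endothelial genes, beside 23.7% of all genes. Above were 1, 0, 1, 1 and 0 genes of the same lists, beside 23.0%. The notochord and floor plate list had 0 below and 2 above, and intermediate mesoderm 1 and 1. The part of these tissues in the values of the sclerotome genes was not tested.

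The genes whose pattern over the 4 arrays was most like that of the 3 members with the smallest p were named by the same centred distance. For Tbx18 they were Pdgfd (0.12), Ano2 (0.13) and Mettl23 (0.15). Pdgfd and Ano2 were not well above background on either Jmjd3-/- array, so their low values there lie near the floor. For Pax9 they were Pax7 (0.04), Nefm (0.05) and Pde2a (0.06), and for Meox2 they included Tnfrsf1a (0.01) and Adcy9 (0.03). Over 4 arrays this describes likeness only.

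The 9 genes lie on 7 chromosomes, with Pax9, Meox2 and Twist1 on chromosome 12 and Sox9 on chromosome 11, which also carries Kdm6b. Their 18 nearest tested neighbours in gene order had a median difference of −0.09, between −1.06 and 0.38. In limma 0 passed an adjusted p of 0.05, and 2 had an unadjusted p under 0.05, beside 11.1% of all genes tested. Of these neighbours 7 lay below and 5 above without overlap, beside 23.7% and 23.0% of all genes. The lowest was Nkx2-2, next to Pax1, a homeobox gene of the ventral neural tube, named after its value was seen, at −1.06 (SE 0.26). The Nkx2-2 probe was dim, with processed intensities of 19.5 and 28.1 in Jmjd3-/- against 43.7 and 58.7 in wild-type.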

How the data were processed

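The 4 deposited scanner files give spot intensity, in arbitrary units, as written by Agilent Feature Extraction 10.7.3.1 (per the file headers). The processed intensity is background-corrected and detrended, per the file headers, and not scaled between arrays. Control spots (1639 of 45018) were left out, repeat spots of 1 probe were averaged as log2 values, and the 75th percentile of each array (578 to 627) was subtracted. The deposited table of log2 values, whose scale no label states, matched these values less the wild-type mean (r from 0.995 to 0.997 across probes, 99.9% of probes within 0.01); its column medians were −0.02 and 0.05 in the Jmjd3-/- samples 1 and 9, and 0.02 and −0.02 in the wild-type samples 3 and 4. Names came from the RefSeq table of GRCm38.p6, by accession for 26690 probes and by synonym for 28; 14456 probes stayed unnamed. The files' header build is mm9, so no gene coordinates are given, and the promoter coordinates are those of RefSeq on GRCm38.p6.

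Each gene was represented by its brightest probe. Genes entered the test where this probe was well above background (in most of its spots) on both arrays of 1 or both genotypes, in limma 3.58.1 (R 4.3.3) with lmFit and eBayes (prior 1.79 degrees of freedom), no covariate and a threshold of 0.05 on the Benjamini-Hochberg adjusted p. The fit was tested on simulated data. Where neither array of a genotype was well above background, the fold is a bound against the higher of the lowest signal well above background and the gene's own signal. The text names the list members, Kdm6b, up to 3 genes of each companion list by p and the 3 nearest patterns of 3 members. Shh, Ptch1, Smo, Gli1, Gas1, Col2a1, the head markers, Tbx6, Pitx1, Prrx1, Tbx5 and Nkx2-2 were added after their values were seen. A few genes that this rule selects are not reported here. The members and lists were chosen with earlier results of these data known. The alternatives were other scaling, background correction, filters and probe rules, the deposited table, another variance model and leaving out each array. The files hold median and not mean spot signals, so normexp (offset 50) used the median.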

Additional observations from a re-analysis of the deposited data

How the results depend on the processing

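The 9 genes were refitted under 14 alternatives, 126 values in all. None of these passed an adjusted p of 0.05 in limma. The changed filters, the fit over all probes and the other variance model reuse the same signals of the 9 genes, so their differences could not change. The deposited table and leaving out outlier spots barely moved them. Of all the values, 124 kept their direction, a count that is in part fixed by this reuse. The exceptions were both in Uncx, whose difference with an array left out ranged from −0.15 to 0.073 (without Jmjd3-/- replicate 1) and was 0.03 without wild-type replicate 3. With an array left out the median of the 9 genes ranged from −0.72 (without Jmjd3-/- replicate 9) to −0.25 (without Jmjd3-/- replicate 1). Normexp moved the dim genes most, to −0.45 for Pax9 and −0.69 for Tbx18. The number of all genes called (5) was 0 with quantile normalisation, without the filter on dim probes, with a filter on all 4 arrays and in the fit over all probes (1465, 1621, 1415 and 2421 at an unadjusted p under 0.05), 2 with normexp and 3 both when probes were averaged per gene and with trend and robust eBayes, and it was 7 both with array median scaling and without outlier spots. With an array left out it ranged from 0 (without wild-type replicate 3, 720 at an unadjusted p) to 221 (without Jmjd3-/- replicate 9); leaving out Jmjd3-/- replicate 1 gave 49 and leaving out wild-type replicate 4 gave 1, and the lone array was then assumed to vary like the other group. The causes were not tested. No paired analysis was possible because the genotypes share no replicate number. With 2 arrays per genotype, the number of arrays limits the precision, and the dim probes of Pax9 and Tbx18 lie closest to background.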
